A study of Ovis aries with 115 samples.

Results

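Complex I (NADH dehydrogenase) is the entry point of the mitochondrial respiratory chain: it oxidises NADH, passes the electrons to ubiquinone and pumps protons across the inner membrane. Most of its subunits are encoded in the nucleus, but the core of the membrane arm, through which protons are pumped, is built from the ND proteins, which are encoded by the mitochondrial genome itself and translated inside the organelle. Mitochondrial transcripts are copied from both strands as long precursors, cut at the flanking tRNAs and matured separately, so that the levels of genes read from the same precursor may differ.

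The 7 ND genes of the mitochondrial genome were described here among the 27054 gene identifiers of the deposited tables: ND1 (ENSOARG00000000006), ND2 (ENSOARG00000000010), ND3 (ENSOARG00000000025), ND4L (ENSOARG00000000027), ND4 (ENSOARG00000000028), ND5 (ENSOARG00000000032) and MT-ND6 (ENSOARG00000000033). They were chosen by their place in the run of mitochondrial identifiers, not by their values. The number at the end of each identifier equals the place of that gene among the 37 genes of the mitochondrial genome in RefSeq for 7 of the 7. Only MT-ND6 is paired with a name in the study's own tables, so the names of the other 6 rest on this order. The values themselves cannot check a gene name, and no coordinates are given because no annotation of the genome build of the files was used here.

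The libraries were made from post-mortem cervix of ewes of 4 breeds: Belclare and Suffolk in Ireland, Fur and Norwegian White Sheep (NWS) in Norway. Suffolk, the breed with low fertility after cervical insemination with frozen-thawed semen, served as the reference. Each breed was sampled in the follicular phase of a synchronised cycle (10 Belclare, 8 Fur, 10 NWS and 11 Suffolk ewes), the follicular phase of a natural cycle (10, 10, 10 and 8) and, again after synchronisation, the luteal phase (10, 9, 8 and 10). The labels call the synchronised cycle induced. The study's methods describe intravaginal progestagen sponges followed by equine chorionic gonadotrophin, and give no genotype or treatment beyond breed and cycle. Fur and NWS differ from Suffolk in country as well as breed, and in those comparisons the part of country and of breed cannot be told apart.

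Totals ranged from 12238996 to 31261671 counts over the 114 libraries (median 17835128.5), and 14811 genes passed the filter on low counts, all 7 ND genes among them. The tissue is bulk cervix, in which fewer cells of a type and less RNA per cell cannot be told apart. Markers of epithelium (8 of 8 measured, CDH1 and MUC1 above 0 in every library), endothelium, fibroblasts and smooth muscle were present. Some libraries stood apart. Those of NWS natural follicular replicates 4 and 10 held 634 and 577 counts of COX-1, the mitochondrial cytochrome oxidase subunit 1 gene (ENSOARG00000000016), against 409 to 978 in Fur ewes. The other NWS, Belclare and Suffolk libraries held at least 16361 counts. Over all tested genes, 5 libraries correlated below 0 with the mean of the other libraries of their group: Belclare synchronised follicular replicate 2, NWS natural follicular replicate 3 and Suffolk natural follicular replicates 5, 6 and 7. Suffolk natural follicular replicates 6, 7 and 8 held 54 to 58 counts of ND2, against 13 to 22 in the other 5 libraries of the group. Whether the labels of these libraries hold was not tested. Some comparisons and mean levels that rest on them are given with and without them, but not all. Correlations, and the spread set against counting noise, include them throughout.

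The counts of the 7 genes were very uneven. ND5, whose product is one of the large proton-pumping subunits, held between 9613 and 49363 counts per library (median 22201.5). It made up 97.4% ± 0.76 (SD, n = 114) of the counts of all 7 genes, with a range from 95.2% to 98.7%. ND4, another proton-pumping subunit, held 146 to 490 counts and MT-ND6 73 to 415.

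ND1, the subunit at the junction with the ubiquinone-binding arm, held 17 to 70 counts and ND2, a proton-pumping subunit, 8 to 81. The small subunits ND3 and ND4L held 5 to 48 and 3 to 50. The 7 genes together took 0.0558% to 0.329% of a library, with a median of 0.13%. No gene lengths of the files' build were used here, so the unequal counts of the 7 genes are given as counts only and cannot be read as an order of transcript levels.

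**Figure D1:**
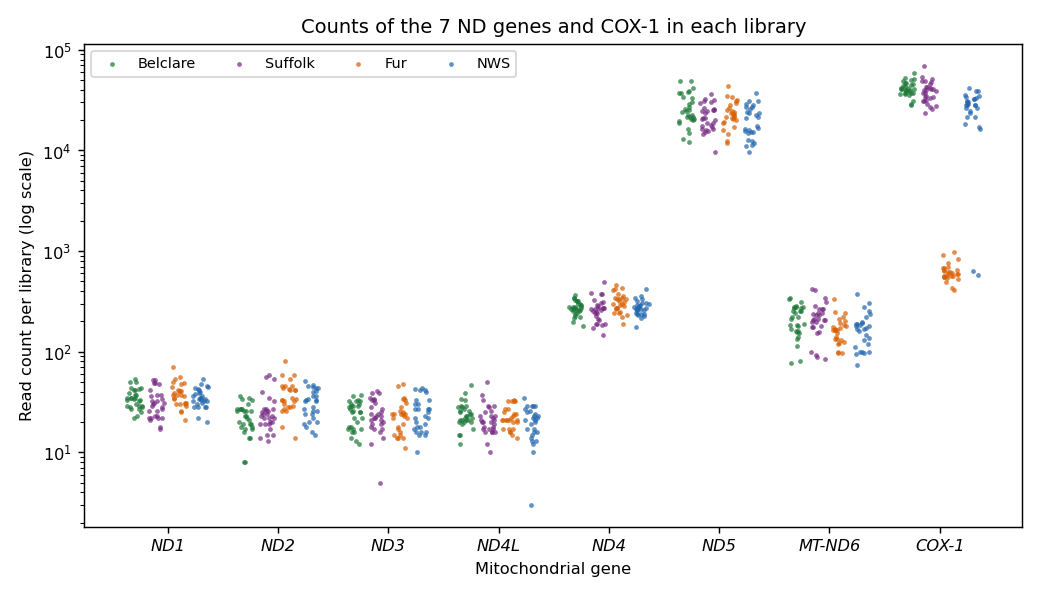
Read counts per library (log axis) of the 7 ND genes and of COX-1, with one point for each of the 114 libraries and a colour for each breed. ND5 and, outside Fur and a pair of NWS libraries, COX-1 sit at 9613 counts or more, ND4 and MT-ND6 between 73 and 490, and ND1, ND2, ND3 and ND4L at 81 or fewer.

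These counts set the precision of each gene. The variance of counts between libraries of one group, divided by the variance that counting alone gives at the same library totals, ran from 0.273 to 3.68 for ND4L over the 12 groups and from 0.853 to 7.27 for ND1. It ran from 1.45 to 20.5 for ND2, from 0.93 to 6.72 for ND3 and from 2.53 to 53.2 for ND4, each highest in Suffolk natural follicular ewes. For MT-ND6 it ran from 5.78 to 32.8 and for ND5 from 550 to 3890. The spread of ND4L and ND1 thus lay near counting noise in several groups, and that of ND5 far above it in all 12. For ND5 the SD was 13.7% of the group mean at the least (NWS synchronised luteal) and 34.1% or more in the Suffolk and NWS natural follicular ewes.

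Levels are given as CPM, the count scaled to the normalised library size. For ND5, the group means ran from 942 ± 267 CPM in NWS synchronised follicular (SD, n = 10) and 947 ± 189 in Fur synchronised follicular (n = 8) to 2069 ± 451 in Belclare synchronised luteal (n = 10). The 4 luteal groups held the 4 highest means, those of NWS (1421 ± 194, n = 8), Suffolk (1486 ± 333, n = 10) and Fur (1581 ± 421, n = 9) lying below that of Belclare. In this order only the last step, from Fur to Belclare synchronised luteal, was larger than the larger SD of the neighbouring groups. All other neighbours lay within their spread.

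MT-ND6 is the only ND gene encoded on the light strand of the mitochondrial genome, next to ND5 on the other strand. Its group means had another order, from 7.51 ± 2.14 CPM in Fur natural follicular (n = 10) to 15 ± 3.59 in Belclare synchronised follicular (n = 10) and 15.1 ± 5.04 in Suffolk synchronised follicular (n = 11). No neighbouring pair of the 12 groups differed beyond its spread, for MT-ND6 or for ND1, ND2, ND3, ND4L and ND4. Between the lowest and the highest group mean the difference was 2.2-fold for ND5, 2.01-fold for MT-ND6, 2.25-fold for ND2, 1.82-fold for ND3, 1.64-fold for ND4L, 1.42-fold for ND4 and 1.27-fold for ND1. The highest mean of ND4L (1.57 CPM) and of ND4 (19.0 CPM) was that of Suffolk natural follicular ewes, the group that holds the libraries with high ND2. Without its replicates 6, 7 and 8 that group stood at 1.23 ± 0.242 CPM of ND4L and 13.5 ± 2.78 CPM of ND4 (SD, n = 5).

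**Figure D2:**
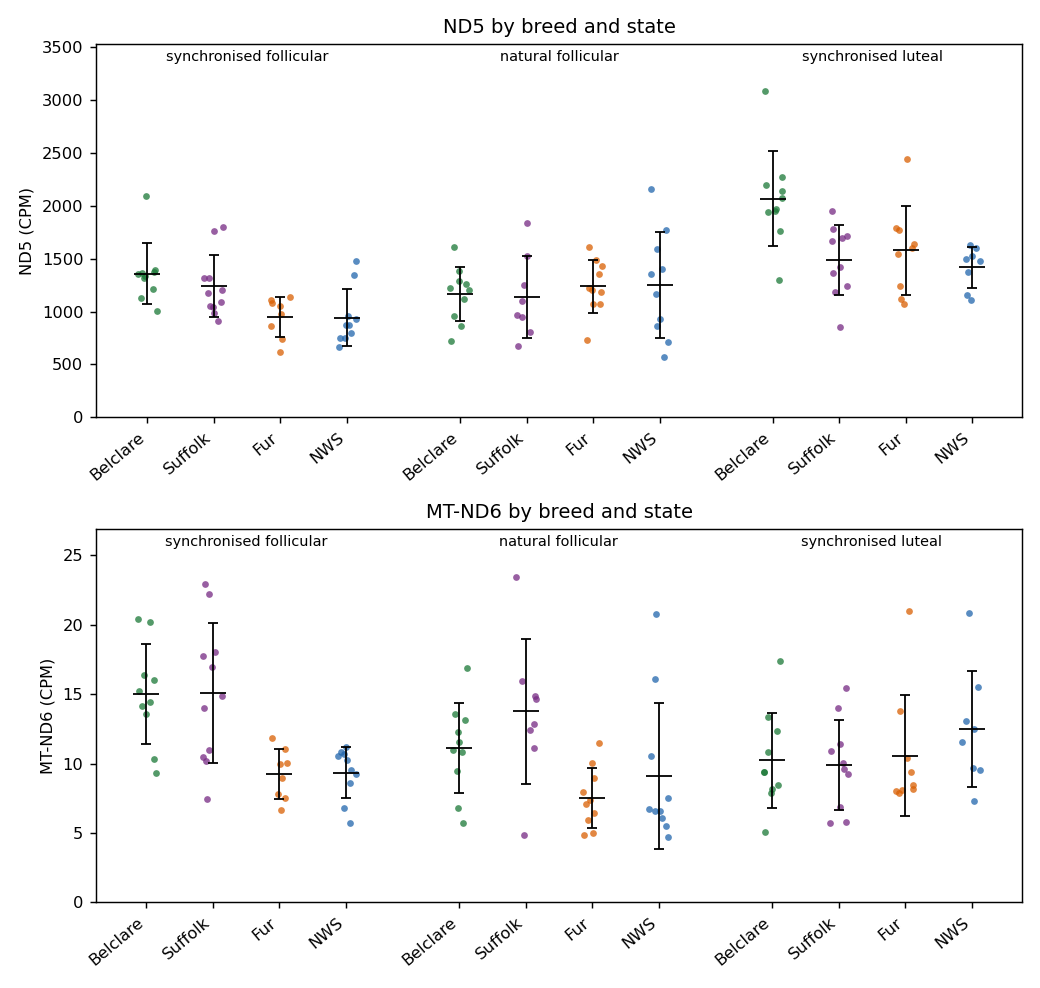
CPM of ND5 (above) and MT-ND6 (below) in each library by state and breed, with the group mean (bar) and SD (whiskers). ND5 is highest in luteal Belclare ewes (1295 to 3085 CPM), and MT-ND6 has its highest means in the synchronised follicular Belclare and Suffolk ewes.

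The first question was whether the ND genes differed between breeds in the follicular phase of a synchronised cycle, the state on which the study reports. ND5 and MT-ND6 were lower in both Norwegian breeds than in Suffolk, and ND2 was higher in NWS. For each comparison an adjusted p under 0.05 (edgeR's quasi-likelihood test, Benjamini-Hochberg over 14811 genes) was a call. Of the 7 genes, 2 passed in Fur, where 31.6% of all genes tested passed, and 3 passed in NWS, where 41.7% did. The share of ND genes that passed was thus near that of all genes.

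In Suffolk ewes, MT-ND6 had a lowest value of 7.44, a median of 14.9 and a highest value of 22.9 CPM. In Fur ewes it ran from 6.66 through a median of 9.44 to 11.8 CPM, and in NWS ewes from 5.69 through 9.88 to 11.2 CPM. All 8 Fur and all 10 NWS ewes lay below the Suffolk median, although the groups overlapped.

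The log2 difference of MT-ND6 was -0.71 (SE 0.194, adjusted p = 0.00938 by edgeR) in Fur and -0.70 (SE 0.181, adjusted p = 0.00421 by edgeR) in NWS. Both comparisons share the Suffolk ewes.

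ND5 ranged from 907 through a median of 1179 to 1799 CPM in Suffolk, from 618 through 1013 to 1142 in Fur and from 665 through 875 to 1483 in NWS. The groups overlapped, with 3 of 8 Fur and 6 of 10 NWS ewes below the lowest Suffolk ewe. The log2 difference was -0.39 (SE 0.145, adjusted p = 0.0452 by edgeR) in Fur and -0.40 (SE 0.151, adjusted p = 0.0355 by edgeR) in NWS. In Fur the call was lost without the filter on low counts (adjusted p = 0.0610) and with all 114 libraries in 1 fit (adjusted p = 0.0761).

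ND2 lay between 17 and 35 counts in Suffolk and between 19 and 44 in NWS. On the CPM scale all 10 NWS ewes lay above the Suffolk median, and 3 above the highest Suffolk ewe. The log2 difference of 0.45 (SE 0.182, adjusted p = 0.0495 by edgeR) lay at the threshold and passed it no longer with DESeq2's size factors (adjusted p = 0.0510), with the ND genes and COX-1 left out of the library sizes (0.0507), without the filter on low counts (0.0775) or with all libraries in 1 fit (0.0928). DESeq2's Wald test passed it (0.47, adjusted p = 0.0364), as did edgeR with the replicate number as a block (0.56, adjusted p = 0.0480). ND1, ND3, ND4L and ND4 did not pass in either breed.

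In Belclare against Suffolk no ND gene passed by edgeR or by DESeq2's Wald test, and none had an unadjusted p under 0.05. Here 1 of the 14811 genes passed (0.00675%). ND5 lay at a log2 difference of 0.12 (SE 0.132) and MT-ND6 at -0.02 (SE 0.184).

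Transcripts used as cell-type markers also differed between Suffolk and the Norwegian breeds. These markers were named from the study's tables of genes that differ between breeds in these same ewes. The direction of the markers here is therefore no independent evidence. All 3 smooth muscle markers (ACTG2, DES and ACTC1) were higher in Fur and in NWS. Their summed level ran from 26.9 to 707 CPM in Suffolk, 1840 to 9040 in Fur and 2690 to 9060 in NWS. Of 8 epithelial markers, 8 were lower in Fur and 7 in NWS, with sums of 2860 to 5630 CPM in Suffolk, 889 to 3400 in Fur and 1320 to 2460 in NWS.

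All 3 endothelial markers were lower in both Norwegian breeds, as were 4 of 5 lymphocyte markers in Fur and 3 in NWS, while 1 of 3 fibroblast markers was higher and 1 lower in each. The summed endothelial level was 773 to 1240 CPM in Suffolk, 566 to 761 in Fur and 394 to 787 in NWS. The lymphocyte sum was 19.1 to 82.8, 10.5 to 26.9 and 10.6 to 26.6 CPM, and the fibroblast sum 293 to 842, 182 to 448 and 317 to 661 CPM, in the same order. No marker was at 0 in these lists except ACTC1, in 1 library. Their part in the differences of ND5, MT-ND6 and ND2 was not tested.

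A list of 18 nuclear genes of mitochondrial function, named by the study's tables, was lower for 17 genes in Fur and 18 in NWS. The median log2 difference was -0.64 in Fur, against -0.02 over all genes, and -0.75 in NWS against -0.02. Most of these genes come from the study's own table of Fur against Suffolk in these same ewes, so their direction is no independent evidence. Among them CPT1A, the carnitine palmitoyltransferase that admits long-chain fatty acids to mitochondria, was at -1.75 in Fur and -1.51 in NWS. PRODH, the proline dehydrogenase, was at -1.21 and -1.31, and SIRT3, a mitochondrial deacetylase, at -0.59 and -0.75. The nuclear subunits of complex I (the NDUF genes) are not paired with identifiers in the tables used here and were not analysed.

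In the follicular phase of a natural cycle, MT-ND6 was lower in Fur than in Suffolk, and no other ND gene passed. It was the only 1 of 7, in a comparison where 20.2% of all genes passed. MT-ND6 ran from 4.85 through 13.7 to 23.5 CPM in Suffolk and from 4.83 through 7.22 to 11.5 in Fur, all 10 Fur ewes lying below the Suffolk median.

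Its log2 difference was -0.90 (SE 0.228, adjusted p = 0.0130 by edgeR). It was -0.67 (adjusted p = 0.0481) without Suffolk replicates 6, 7 and 8, and -1.05 (adjusted p = 0.00148) without the libraries unlike their group.

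Without Suffolk replicates 6, 7 and 8, ND2 (0.75, SE 0.208, adjusted p = 0.0117 by edgeR) and ND5 (0.45, SE 0.167, adjusted p = 0.0479) also passed as higher in Fur. With all libraries their log2 differences were -0.37 and 0.10, so that for ND2 the direction itself turned on those 3 libraries. They also held high ND4, 27.4 to 29.1 CPM, against a group median of 16.5. The share of all genes that passed without these libraries is not given here, so the added calls cannot be set against it.

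No ND gene passed in Belclare against Suffolk (0% of all genes) or NWS against Suffolk (1.04%) in the natural cycle, by edgeR or by DESeq2's Wald test. At an unadjusted p under 0.05 there were 2 ND genes in Belclare (9.74% of all genes) and 0 in NWS (19.6%). These were ND2 and ND3 in Belclare, and 5 of 10 Belclare ewes lay above the Suffolk median of ND2. The log2 difference of ND2 was -0.91 (SE 0.391, adjusted p = 0.477 by edgeR) in Belclare and -0.53 (SE 0.37, adjusted p = 0.460) in NWS.

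Without Suffolk replicates 6, 7 and 8 these were 0.20 (SE 0.299, adjusted p = 0.844) and 0.58 (SE 0.268, adjusted p = 0.174), on the other side of 0. No ND gene then passed in either comparison, and 1 in Belclare and 2 in NWS had an unadjusted p under 0.05. Without NWS replicates 4 and 10, none passed in NWS and 1 had an unadjusted p under 0.05. The shares of all genes under that p without these libraries are not given here. In NWS, MT-ND6 ran from 4.74 through 6.65 to 20.8 CPM, with a log2 difference of -0.60 (SE 0.307, adjusted p = 0.288 by edgeR) that was -0.69 (adjusted p = 0.311) without replicates 4 and 10. In Fur 7 of 8 epithelial markers were lower, with sums of 1370 to 6900 CPM in Suffolk and 1160 to 2510 in Fur, while no smooth muscle marker passed. Of the other lists, 1 of 3 endothelial markers was lower and 1 of 3 fibroblast markers higher in Fur, and no lymphocyte marker passed. The part of these cell types was not tested. Of the 18 nuclear mitochondrial genes, 1 was higher and 6 were lower in Fur, and none passed in Belclare or NWS.

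**Figure D3:**
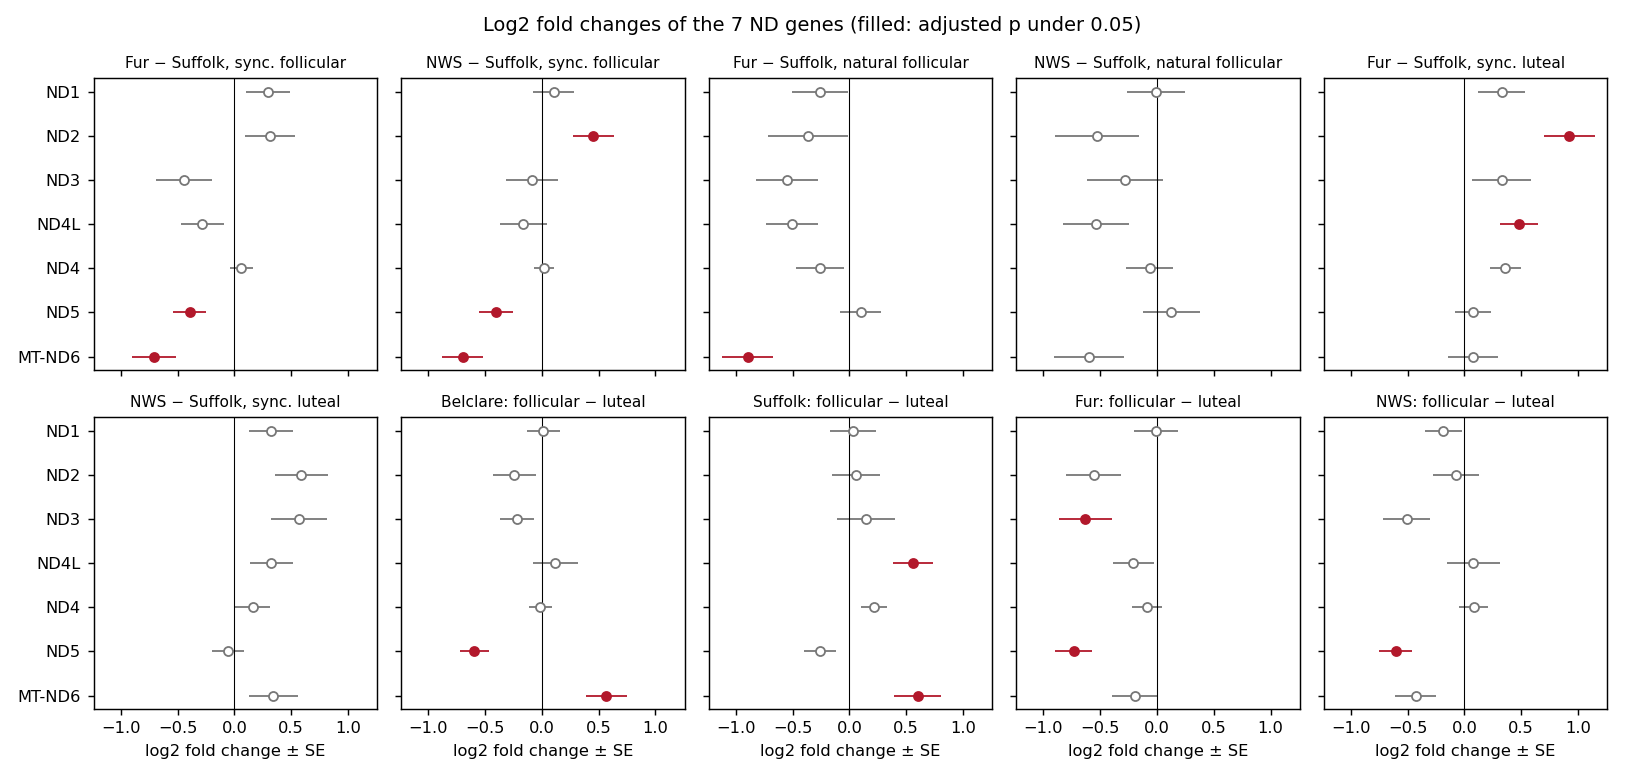
Log2 fold change (x axis) with its SE for each of the 7 ND genes (y axis) in 10 comparisons, filled where the adjusted p was under 0.05. MT-ND6 and ND5 lie left of 0 in both Norwegian breeds against Suffolk in the synchronised follicular phase. Between the phases ND5 lies left of 0 (higher in the luteal phase) within every breed, filled in Belclare, Fur and NWS and open in Suffolk.

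In the luteal phase ND2 and ND4L were higher in Fur than in Suffolk. These are 2 of 7, where 30.1% of all genes passed. The 7 log2 differences ran from 0.08 to 0.92 (median 0.33, against -0.02 over all genes). In NWS 6 of 7 and in Belclare 7 of 7 were above 0, with medians of 0.33 and 0.27. These comparisons share the Suffolk luteal ewes, whose means of ND1, ND4L and ND4 were the lowest of the 12 groups. The shared direction is therefore not independent between breeds.

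ND2 held 14 to 40 counts in Suffolk and 26 to 81 in Fur. In CPM the Suffolk ewes ran from 0.873 through 1.29 to 2.30 and the Fur ewes from 1.36 through 2.45 to 4.48. All 9 Fur ewes lay above the Suffolk median and 5 above the highest Suffolk ewe. On the log2 scale ND2 differed by 0.92 (SE 0.224, adjusted p = 0.00549 by edgeR).

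ND4L held 10 to 23 counts in Suffolk and 17 to 33 in Fur, 0.742 through 0.948 to 1.20 CPM against 0.980 through 1.13 to 1.82 CPM. Its log2 difference was 0.48 (SE 0.168, adjusted p = 0.0360 by edgeR), and the call was lost without the filter on low counts (adjusted p = 0.0596). ND4 stood at 0.36 (SE 0.139, adjusted p = 0.0547 by edgeR), and passed by DESeq2's Wald test (adjusted p = 0.0377) and with all libraries in 1 fit (adjusted p = 0.0289). ND5 (0.08, SE 0.156) and MT-ND6 (0.08, SE 0.216) did not pass, and lay near 0 where they had been lower in the synchronised follicular phase. Whether the breed difference changed with phase was tested as an interaction.

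In Belclare against Suffolk in the luteal phase, where 3.15% of all genes passed, no ND gene passed by edgeR. An unadjusted p under 0.05 was found for 3 of 7 ND genes and for 24.8% of all genes. ND5 ran from 1295 through 2022 to 3085 CPM in Belclare and from 855 through 1543 to 1948 in Suffolk, with 6 of 10 Belclare ewes above the highest Suffolk ewe. Its log2 difference of 0.47 (SE 0.146, adjusted p = 0.0701 by edgeR) passed by DESeq2's Wald test (adjusted p = 0.0203) and with all libraries in 1 fit (adjusted p = 0.0454).

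In NWS against Suffolk, where 8.93% of all genes passed, none of the ND genes passed by edgeR or DESeq2, and 2 had an unadjusted p under 0.05. Beside the differences in Fur, all 3 smooth muscle markers were higher (583 to 9410 CPM against 318 to 981), and 5 of 8 epithelial (461 to 2100 against 1470 to 3390) and 5 of 5 lymphocyte markers (13.0 to 29.2 against 27.5 to 61.3) were lower. Of the others, 1 of 3 endothelial markers was lower, and 1 of 3 fibroblast markers was higher and 2 lower. Of the 18 nuclear mitochondrial genes, 4 were lower in Fur, and none passed in NWS or Belclare. The part of the cell types was not tested.

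**Figure D4:**
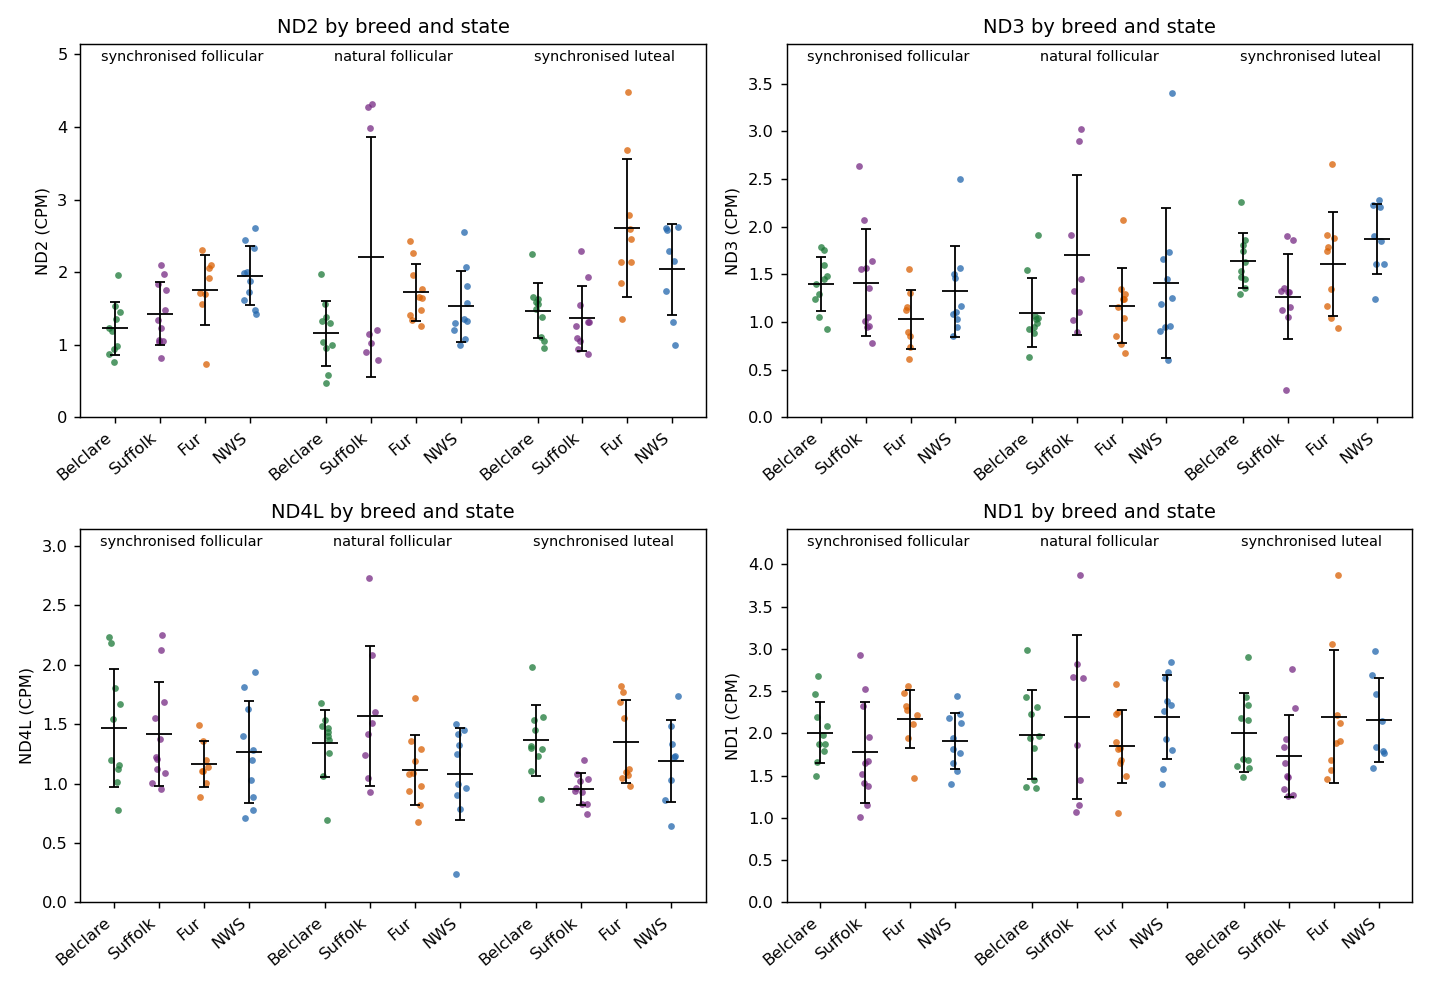
CPM of ND2, ND3, ND4L and ND1, the genes with the lowest counts, in each library by state and breed, with the group mean (bar) and SD (whiskers). In the luteal phase ND2 has its highest mean in Fur (2.61 CPM) against 1.36 CPM in Suffolk, and 3 Suffolk natural follicular libraries stand near 4 CPM of ND2.

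The Norwegian breeds were also compared with each other. No ND gene passed between NWS and Fur in any of the 3 states, where 0.00675%, 0.0405% and 0.0540% of all genes passed, and none had an unadjusted p under 0.05 or passed by DESeq2's Wald test. The log2 differences of the 7 genes lay between -0.35 and 0.34. Without NWS natural follicular replicates 4 and 10, none passed or had an unadjusted p under 0.05 in the natural cycle. COX-1, in contrast, was at a group mean of 32.1 to 35.0 CPM in Fur and 1306 to 1724 CPM in NWS, the lowest being that of the natural cycle, which was 1623 ± 576 (SD, n = 8) without replicates 4 and 10. It was at 1930 to 2483 CPM in Belclare and Suffolk. With group means taken away, the correlation of COX-1 with each of the 7 lay between -0.05 and 0.20 over 114 libraries. NWS natural follicular replicates 4 and 10, far below their group in COX-1, weigh on these correlations, which were not computed without them.

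The next question was how the ND genes changed between the follicular and the luteal phase of the synchronised cycle within a breed. ND5 was higher in the luteal phase in Belclare, Fur and NWS. MT-ND6 was lower in the luteal phase in Belclare and Suffolk. Of the 7 genes, 2 passed in Belclare (43.1% of all genes), 2 in Fur (45.9%), 1 in NWS (41.7%) and 2 in Suffolk (35.5%), shares below those of all genes in each breed.

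In Belclare, ND5 ran from 1008 through 1346 to 2092 CPM in the follicular and from 1295 through 2022 to 3085 CPM in the luteal phase, and 9 of 10 follicular ewes lay below the luteal median. The follicular level was lower by a log2 difference of -0.59 (SE 0.129, adjusted p = 0.00107 by edgeR). The highest follicular value was that of replicate 2, a library unlike its group, and without it the difference was -0.68 (SE 0.115, adjusted p = 0.000142).

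In Fur, ND5 ran from 618 through 1013 to 1142 CPM in the follicular and from 1073 through 1597 to 2444 CPM in the luteal phase. Of the 8 follicular ewes, 5 lay below every luteal ewe. This was a log2 difference of -0.73 (SE 0.160, adjusted p = 0.00133 by edgeR).

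In NWS the follicular values of 665 through 875 to 1483 CPM faced luteal values of 1106 through 1486 to 1625 CPM, and 8 of 10 follicular ewes lay below every luteal ewe. The log2 difference was -0.61 (SE 0.145, adjusted p = 0.00335 by edgeR). In Suffolk ND5 did not pass, at -0.26 (SE 0.143, adjusted p = 0.164 by edgeR), with 9 of 11 follicular ewes below the luteal median.

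MT-ND6 moved the other way in the Irish breeds. In Belclare it ran from 9.30 through 14.8 to 20.4 CPM in the follicular and from 5.09 through 9.40 to 17.4 CPM in the luteal phase, a log2 difference of 0.57 (SE 0.182, adjusted p = 0.0164 by edgeR). In Suffolk it ran from 7.44 through 14.9 to 22.9 CPM and from 5.74 through 9.85 to 15.4 CPM, a log2 difference of 0.60 (SE 0.207, adjusted p = 0.0281 by edgeR). In both breeds the phases overlapped, with 9 of 10 Belclare and 10 of 11 Suffolk follicular ewes above the luteal median.

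In Fur (-0.19, SE 0.20, adjusted p = 0.446 by edgeR) and NWS (-0.43, SE 0.178, adjusted p = 0.0593 by edgeR) MT-ND6 lay on the other side of 0 and did not pass. DESeq2's Wald test passed it in NWS (adjusted p = 0.0464).

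The remaining calls were of small subunits. ND3 was lower in the follicular phase of Fur, with 11 to 34 counts against 18 to 48 and a log2 difference of -0.63 (SE 0.236, adjusted p = 0.0371 by edgeR), and the call was lost without the filter on low counts (adjusted p = 0.0629). ND4L, whose reading frame overlaps that of ND4 in a shared transcript, was higher in the follicular phase of Suffolk. It held 16 to 50 counts there and 10 to 23 in the luteal phase, and 7 of 11 follicular ewes lay above every luteal ewe on the CPM scale. On the log2 scale the difference was 0.56 (SE 0.175, adjusted p = 0.0164 by edgeR).

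Because ND5 and MT-ND6 are neighbours on opposite strands, their counts were also set against each other within each library, which no scaling affects. In Belclare there were 60.3 through 91.2 to 148 ND5 counts per MT-ND6 count in the follicular phase and 156 through 217 to 269 in the luteal phase, and the phases did not overlap. In Suffolk the ratio ran from 58.7 through 77.6 to 168 and from 61.0 through 150 to 296, in Fur from 61.6 through 97.4 to 166 and from 73.9 through 158 to 212, and in NWS from 64.9 through 93.2 to 133 and from 73.3 through 120 to 167. The luteal median was higher in all 4 breeds, and the phases overlapped in the other 3. In the natural follicular phase the median was 105 in Belclare, 162 in Fur, 145 in NWS and 78.3 in Suffolk. The ratio was set up after the values of both genes were seen and was not tested.

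**Figure D5:**
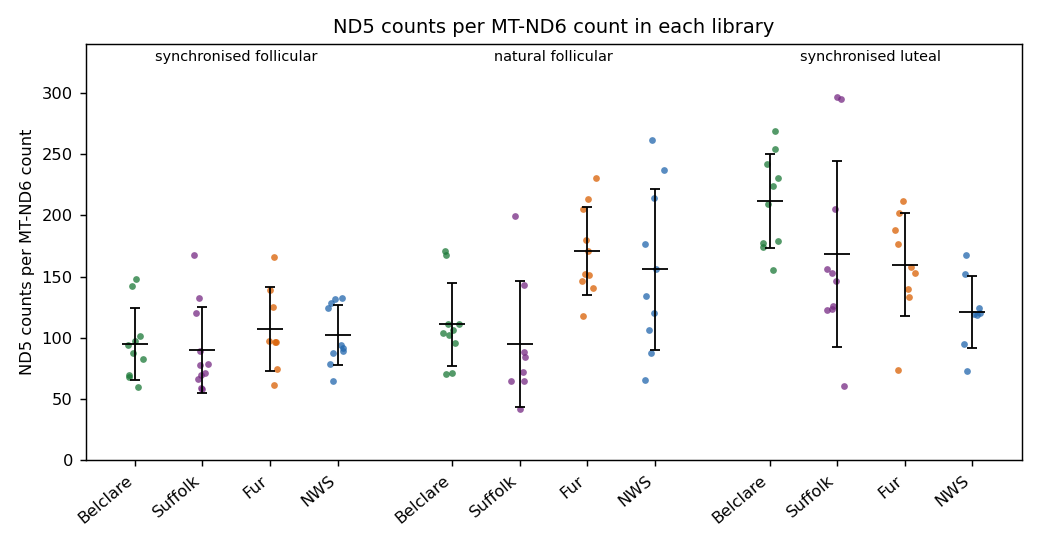
ND5 counts per MT-ND6 count in each library by state and breed, with the group mean (bar) and SD (whiskers). The luteal Belclare ewes (156 to 269) lie above all synchronised follicular Belclare ewes (60.3 to 148).

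Cell-type markers moved between the phases too. Smooth muscle markers were higher in the follicular phase for 1 of 3 in Belclare, 2 in Fur and 3 in NWS, and lower for 1 in Suffolk. The summed follicular and luteal levels were 76.1 to 13800 and 79.4 to 2270 CPM in Belclare, 1840 to 9040 and 583 to 9410 in Fur, 2690 to 9060 and 919 to 3880 in NWS, and 26.9 to 707 and 318 to 981 in Suffolk. Of the 8 epithelial markers, 3, 3, 2 and 4 were higher and 1, 2, 2 and 1 lower in the follicular phase of Belclare, Fur, NWS and Suffolk.

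The epithelial sums of the follicular and luteal ewes were 1280 to 5570 and 1740 to 3250 CPM in Belclare, 889 to 3400 and 461 to 2100 in Fur, 1320 to 2460 and 1010 to 1930 in NWS, and 2860 to 5630 and 1470 to 3390 in Suffolk. With group means taken away, ND5 correlated at r = -0.47 with the epithelial sum and at 0.25 with the smooth muscle sum over 114 libraries, which share their depth. MT-ND6 correlated at 0.07 and 0.05 with these, at -0.35 with the endothelial sum, -0.16 with the fibroblast sum and -0.15 with the lymphocyte sum, where ND5 stood at 0.15, 0.11 and 0.0066. Lymphocyte markers were lower in the follicular phase for 2 of 5 in Belclare, 1 in Fur, 2 in NWS and 0 in Suffolk. Fibroblast markers were higher for 2 of 3 in Belclare and 1 in each other breed. Endothelial markers were lower for 1 of 3 in Belclare, 1 in Fur, 2 in NWS and 0 in Suffolk, and 1 was higher in Belclare. The endothelial sums of the follicular and luteal ewes were 771 to 1220 and 906 to 1180 CPM in Belclare, 566 to 761 and 501 to 807 in Fur, 394 to 787 and 461 to 932 in NWS, and 773 to 1240 and 729 to 1420 in Suffolk. The part of these cell types was not tested.

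Of the 18 nuclear mitochondrial genes, 6 were higher and 4 lower in the follicular phase in Belclare, 2 and 6 in Fur, 1 and 5 in NWS, and 7 and 1 in Suffolk. Their medians were 0.09, -0.12, -0.23 and 0.26 on the log2 scale.

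Within each breed the synchronised and the natural follicular phase were compared to ask whether synchronisation altered ND expression. No ND gene passed by edgeR in Belclare (0% of all genes), Fur (18.1%), NWS (0.0135%) or Suffolk (0%), and none passed in NWS without natural follicular replicates 4 and 10 or in Suffolk without 6, 7 and 8. At an unadjusted p under 0.05 there were 1, 1, 0 and 0 ND genes, beside 1.96%, 32.6%, 12.9% and 8.55% of all genes. DESeq2's Wald test passed ND5 in Fur and no other ND gene. In Fur, ND5 ran from 618 through 1013 to 1142 CPM in the synchronised and from 730 through 1215 to 1610 CPM in the natural cycle. The log2 difference was -0.40 (SE 0.145, adjusted p = 0.0636 by edgeR, 0.0357 by DESeq2).

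Whether the breed differences themselves changed with phase or cycle was tested by interaction terms for Belclare, Fur and NWS against Suffolk. No ND gene passed by edgeR in any of the 6 tests, in which 0% and 0% (Belclare, phase and cycle), 0.128% and 6.68% (Fur) and 0.209% and 0.00675% (NWS) of all genes passed. Without Suffolk natural follicular replicates 6, 7 and 8, ND5 passed in the Fur cycle interaction (-0.85, SE 0.226, adjusted p = 0.0245 by edgeR). It did not pass without the libraries unlike their group (-0.69, SE 0.243, adjusted p = 0.0511 by edgeR). The shares of all genes that passed in these refits are not given here. For the phase interaction of Fur, 4 of 7 ND genes had an unadjusted p under 0.05, as did 14.7% of all genes. All 7 estimates lay below 0, as they did in the phase interactions of Belclare and of NWS. These tests share the same Suffolk ewes, so the shared direction is not independent between breeds. In Fur, MT-ND6 was at -0.79 (SE 0.302, adjusted p = 0.209 by edgeR) and ND5 at -0.47 (SE 0.219, adjusted p = 0.310). For the phase interaction of NWS, MT-ND6 was at -1.02 (SE 0.284, adjusted p = 0.10 by edgeR), and DESeq2's Wald test passed it (adjusted p = 0.0376). There 1 of 7 ND genes and 13.4% of all genes had an unadjusted p under 0.05. In the other tests 0 (Belclare, phase and cycle) or 1 (Fur and NWS, cycle) ND genes had an unadjusted p under 0.05. Of all genes, 10.8% and 3.54% (Belclare, phase and cycle), 23.6% (Fur, cycle) and 14.7% (NWS, cycle) did.

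Among themselves the ND genes varied together to different degrees. With group means taken away, log2 CPM of ND1, ND2, ND4 and ND5 correlated pairwise at r = 0.59 to 0.65 over the 114 libraries. MT-ND6 correlated at 0.04 to 0.38 with the other 6, highest with ND5, and ND4L at 0.04 to 0.36. These libraries share their depth and their normalisation, and the genes with low counts carry more counting error. They include Suffolk natural follicular replicates 6, 7 and 8. Without these, that group's mean fell from 2.20 to 1.01 CPM for ND2 and from 19.0 to 13.5 for ND4. For ND1 it fell from 2.19 to 1.64 CPM and for ND5 from 1137 to 897. The correlations were not computed without them. The identifiers whose log2 CPM was most like the mean of the 7 ND genes, with group means taken away, had Pearson's r = 0.76 (ENSOARG00000000019), 0.63 (ENSOARG00000000035), 0.59, 0.59 and 0.58. None of these 5 is named in the study's tables. The numbers of ENSOARG00000000019, ENSOARG00000000035 and ENSOARG00000000023 (0.59) lie in the same run of mitochondrial identifiers as the ND genes. By that order they would be other mitochondrial genes.

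Over the 20 comparisons of groups, 15 of 140 edgeR tests of ND genes passed, in 8 comparisons. In those 8 comparisons 20.2% to 45.9% of all genes passed, and in the others 0% to 18.1%. Many of the comparisons share a group of ewes, so the calls are not independent of each other. ND5 and MT-ND6 passed in 5 each, ND2 and ND4L in 2 each and ND3 in 1, whereas ND1 and ND4 passed in none by edgeR.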

How the data were processed

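Cervical poly(A) RNA of 115 ewes was sequenced from stranded libraries. After trimming, reads were aligned by the authors to Oar_v3.1 using STAR (2.6.1b in the submitters' processing notes) with at most 2 mismatches. Read pairs that mapped uniquely were assigned to genes by featureCounts (Subread 1.6.3). The authors deposited raw read counts per gene identifier, without normalization. Pairs that match a nuclear copy of mitochondrial DNA equally well, or that differ from the reference at more than 2 bases, are lost before counting, so counts of ND genes cannot be read as transcript abundance. Whether counting used the strand is not given in the sources used here, which leaves reads of MT-ND6 and ND5 uncertain. How reads over the overlap of ND4L and ND4 were counted is not given either, which leaves those reads uncertain too.

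Groups came from the labels, and 1 Suffolk library whose title and other labels disagree entered no comparison. Tested genes reached 1 CPM in 10 or more of the 39 ewes of the synchronised follicular phase (14811, the 7 ND genes included). Each pair of groups was fitted alone with edgeR 4.0.16 (R 4.3.3), TMM normalization and the quasi-likelihood test, and interactions over the 4 groups concerned. The SE is the log2 fold change divided by the square root of F. DESeq2 1.42.0 gave alternative size factors and a Wald test, and the other alternatives are named at the end. Levels in CPM use the library sizes normalised over the 114 libraries, and correlations use log2 CPM with a prior count of 2. The tests were tried on simulated counts. That each library is another ewe is taken from the labels.

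The ND genes, COX-1 and the lists of other genes were chosen with earlier results of these data known. The rule for named genes was all 7 ND genes, COX-1, the 5 identifiers most like their mean and counts over the lists. The cell type lists hold 3 smooth muscle, 8 epithelial, 3 endothelial, 5 lymphocyte and 3 fibroblast markers. Gene names, those of the markers included, came from the study's tables of genes that differ between breeds, which name 1352 identifiers. The others came from gene order in a RefSeq table of another assembly.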

Additional observations from a re-analysis of the deposited data

Results flagged for a closer look

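Of 77 sets of values (7 ND genes in the 11 groups of 4 to 10 libraries), 6 held 1 library whose gap to its nearest neighbour was too large for the range of its group by Dixon's criterion. Chance flags about 1 in 20 such sets, and no cause was tested. For ND3, Fur natural follicular replicate 4 was at 2.07 CPM (others 0.678 to 1.35), NWS natural follicular replicate 5 at 3.40 CPM (others 0.603 to 1.73), NWS synchronised follicular replicate 2 at 2.49 CPM (others 0.853 to 1.57) and Suffolk synchronised luteal replicate 7 at 0.291 CPM (others 1.05 to 1.90). These ND3 values rest on 46, 42, 40 and 5 counts. NWS natural follicular replicate 5 was also the library with 3 counts of ND4L.

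For ND5, Belclare synchronised follicular replicate 2 was at 2092 CPM (others 1008 to 1390). This library also correlated below 0 with the other libraries of its group over all tested genes. For MT-ND6, Fur synchronised luteal replicate 6 was at 20.9 CPM (others 7.88 to 13.8).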

How the results depend on the processing

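The number of ND genes that passed stayed within 1.5 times in 173 of 194 repeats over the 26 comparisons. In the edgeR fits reported above, an ND gene passed in only 8 of these comparisons. Where none had passed, a repeat with none counted as unchanged, and requiring a fold change could not alter it. A change from 3 genes to 2 also counted as unchanged. The share of unchanged repeats is therefore no measure of how stable the calls were. Without the filter on low counts the number that passed was 1 in Fur against Suffolk, both synchronised follicular and luteal. It was also 1 between the phases of Fur. With all libraries in 1 fit it was 1 in Fur against Suffolk (synchronised follicular) and 1 in Belclare against Suffolk (luteal). With a fold change above 1.5 required as well, it was 1 in Fur and 1 in NWS against Suffolk (synchronised follicular), 1 in Fur against Suffolk (luteal), and 1 each between the phases of Belclare and of Suffolk. DESeq2's Wald test passed 1 in Belclare against Suffolk (luteal), 3 between the phases of NWS, 1 between the cycles of Fur and 1 in the NWS phase interaction. Without Suffolk natural follicular replicates 6, 7 and 8, left out after seeing the data, it was 3 in Fur against Suffolk (natural) and 1 in the Fur cycle interaction. Mean levels with DESeq2's size factors moved by less than 1 SD in all 84 cases.

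The replicate numbers of the titles do not pair ewes: correlations of same-numbered libraries ran from -0.522 to 0.587, and in 0 comparisons were all above 0.1. A fit with the replicate number as a block also left out ewes whose number was not found in every group compared. Its changes thus rest on fewer ewes in some comparisons as well as on the block. With the replicate block, 1 ND gene passed in Fur against Suffolk (synchronised follicular), 1 in Fur against Suffolk (luteal), 1 each between the phases of Belclare and of Fur, and 0 in Suffolk. ND5 in NWS against Suffolk (synchronised follicular) also lost its call (-0.33, adjusted p = 0.0570), which left 2. Under the block MT-ND6 was at 0.10 in Belclare against Suffolk (synchronised follicular), ND5 at -0.033 (natural), and ND5 at 0.04 in NWS against Suffolk (luteal), each on the other side of 0. MT-ND6 in Belclare against Suffolk (synchronised follicular) was at 0.0028 without the libraries unlike their group, a choice made after seeing the data. None of these 4 passed in any fit. Against Suffolk in the natural cycle, ND2 was at 0.20 in Belclare, 0.75 in Fur and 0.58 in NWS without Suffolk replicates 6, 7 and 8, and at 0.093 in Fur without the libraries unlike their group, each reversed. ND1, ND2, ND3 and ND4L rest on 81 or fewer counts per library, and a gene that did not pass is not shown to be equal between groups.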

Other observations

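The Suffolk library whose labels name more than 1 cycle and phase held 31819 counts of ND5 (1834 CPM), 174 of MT-ND6 (10.03 CPM), 314 of ND4 (18.1 CPM), 45 of ND2, 41 of ND1, 18 of ND3 and 16 of ND4L, and 32957 of COX-1 (1899 CPM).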
